A study of Mus musculus with 8 samples.

Results

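The genes described here are the Wnt ligands, the receptors that bind them, the secreted antagonists, the R-spondins with their receptors, and the Axin and TCF/LEF proteins inside the cell. They were picked out by gene symbol, with no threshold on their values, and 47 of the 17258 genes in the table met this rule: 15 ligands, 12 receptors and co-receptors, 8 antagonists, 6 R-spondins or Lgr receptors, and 6 Axin or TCF/LEF genes. Another 7 genes of these families in the RefSeq annotation (Wnt1, Wnt7a, Wnt8a, Wnt16, Dkk1, Dkk4 and Rspo4) were not analysed here. Acrylamide-treated mice received 25 mg/kg body weight by intraperitoneal injection on 5 mornings, and control mice received phosphate buffered saline alone on the same schedule. All mice were outbred Swiss males aged 8 to 12 weeks, with no engineered allele named, and there were 4 in each group. The glands were taken 72 h later than the final dose, with the prostate dissected off and the fluid pressed out, and polyadenylated RNA was sequenced. The comparison addresses the response of the gland to this reproductive toxicant.

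Wnt proteins are secreted, lipid-modified signals that bind Frizzled receptors together with the co-receptors Lrp5 or Lrp6. In the absence of a signal, Axin holds together the complex that marks beta-catenin for destruction. When a Wnt binds, beta-catenin escapes, enters the nucleus and joins TCF/LEF proteins on their target genes. R-spondins, acting through Lgr receptors, keep Frizzled receptors at the cell surface, while Sfrp, Wif1 and Dkk proteins block the ligands or the co-receptors. In male accessory glands such as the prostate, Wnt signals pass between stroma and epithelium during development.

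For each gene the deposited table gives an acrylamide and a control value, in units of reads divided by a library's size factor, with no correction for gene length. In genes whose reads could be worked out, the mean of both values is the mean over the 8 libraries, but its division between the groups can differ from that of the reads, so that a group without a read can have a value above 0. Over all genes they sum to 27433231 normalised reads per acrylamide library and 30956651 per control library. In genes with few reads, the digits of these values allow the whole reads of each of the 8 libraries to be worked out, with the group of each library but not its mouse. Libraries are therefore numbered here by falling size factor within a group (1.11 to 1.03 in acrylamide and 1.02 to 0.886 in control libraries), and the numbers do not match the labelled replicates. Reads per library were obtained for 7659 genes, among them 26 of the 47 Wnt pathway genes. The other 21, all more abundant, have only a value per group, with no spread between mice. The seminal vesicle identity of the tissue was plain in its secretory genes: all 7 Svs genes measured, which encode the secreted proteins of the gland, had group values of 592211 to 5204285 normalised reads in the acrylamide group and 629225 to 6272385 in the control group. Prostate genes were also present, with Pbsn, an androgen-dependent secretory gene, at 10922 in the acrylamide group and 12107 in the control group. Acrylamide library 1 stood apart in T cell markers: 7 of them summed to 342.2 normalised reads in it, against 68.1 to 135.5 in the other acrylamide libraries and 85.6 to 114.0 in control libraries.

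The most abundant of the 47 genes were a secreted antagonist, TCF factors and a co-receptor, and only 1 ligand was among the first 8. Since longer transcripts collect more reads, levels of different genes are compared per kilobase of transcript, on the normalised read scale. Wif1, a secreted factor that binds Wnt proteins, ranked first at 386.0 per kilobase in the acrylamide group and 367.3 in the control group. Tcf7l2, a TCF protein that carries beta-catenin to its target genes, came next with 170.0 in the acrylamide group and 198.6 in the control group. Tcf7, a related factor also known from T cells, had 160.5 in the acrylamide group and 176.4 in the control group.

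Lrp5, a co-receptor for Wnt ligands, followed with 167.4 per kilobase in the acrylamide group and 155.2 in the control group. Axin1, the scaffold of the beta-catenin destruction complex, had 105.6 in the acrylamide group and 114.7 in the control group. Lgr4, an R-spondin receptor, had 105.0 per kilobase in the acrylamide group and 107.9 in the control group. These positions are those in the control group. In the acrylamide group Lrp5 lay above Tcf7, and neighbours in the order cannot be separated because the group values have no spread. Tcf7l1, a TCF protein known mainly as a repressor, and Wnt7b, the most abundant ligand, completed the first 8 places with 103.6 and 86.2 in the acrylamide group and 96.4 and 88.8 in the control group. Without the division by length, 6 of these 8 genes were still among the first 8.

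**Figure D1:**
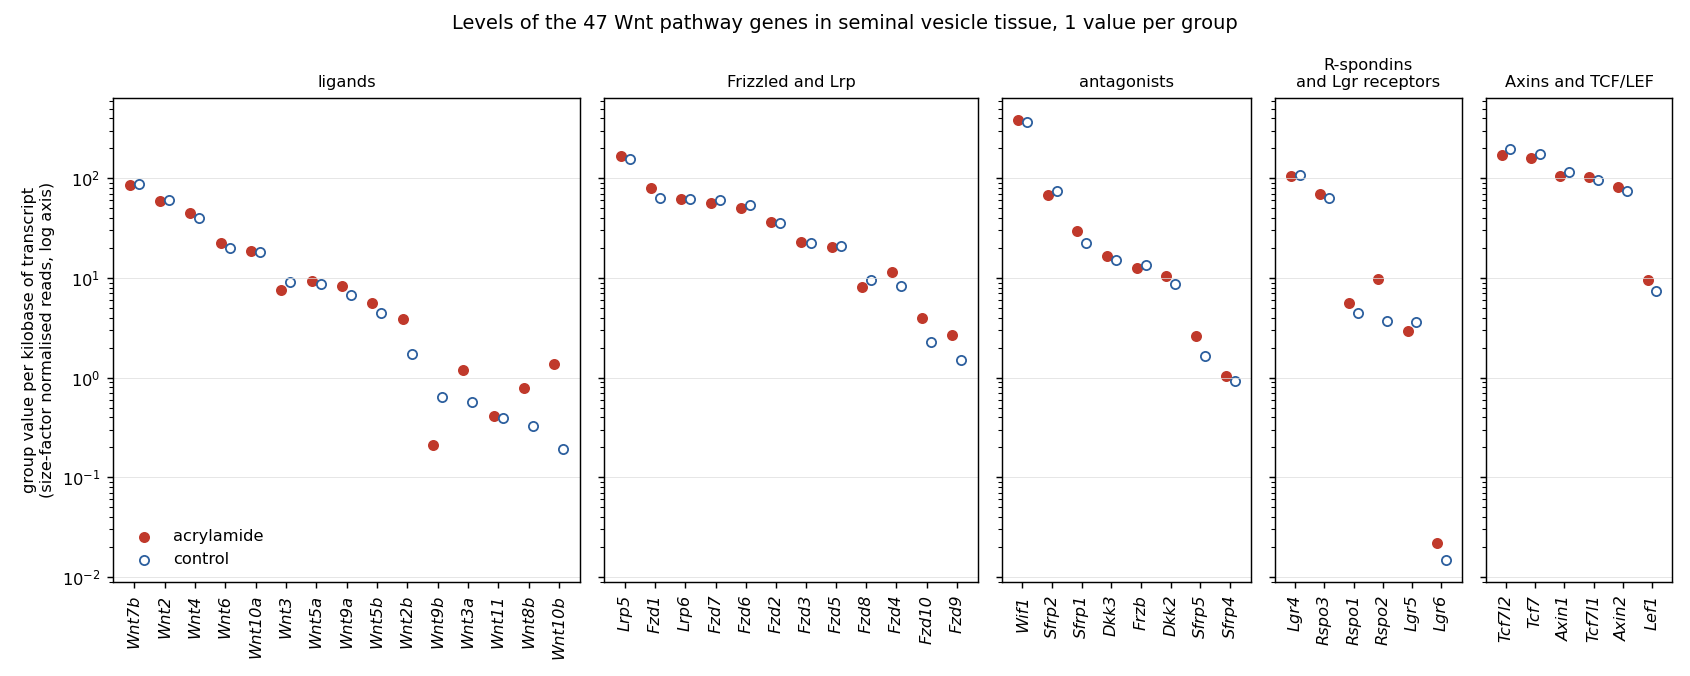
Level of each of the 47 Wnt pathway genes in acrylamide (filled red) and control (open blue) tissue, as the group value in normalised reads per kilobase of transcript on a log axis, with genes ordered by control level within their role. Wif1 lies highest at 386.0 in the acrylamide group and 367.3 in the control group, and the gap between the groups widens mainly among the genes at the low end, such as Wnt10b and Wnt9b.

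The starts of 5 of the genes are shown because the results below turn on them: Wnt9b, Wnt10b and Fzd4 for their differences between groups, Wnt3 because its gene overlaps that of Wnt9b, and Axin2 because it is a well-known target of the pathway itself. Each run holds 250 bases before and 50 after a RefSeq start on build GRCm38.p6, 5′ to 3′ on the strand of the gene, with any match to the TCF/LEF core in capitals. Coordinates are chr11:103749772-103750071 (minus strand) for Wnt9b, chr11:103773925-103774224 (plus) for Wnt3, chr15:98778101-98778400 (minus) for Wnt10b, chr7:89404116-89404415 (plus) for Fzd4 and chr11:108920099-108920398 (plus) for Axin2.
Wnt9b: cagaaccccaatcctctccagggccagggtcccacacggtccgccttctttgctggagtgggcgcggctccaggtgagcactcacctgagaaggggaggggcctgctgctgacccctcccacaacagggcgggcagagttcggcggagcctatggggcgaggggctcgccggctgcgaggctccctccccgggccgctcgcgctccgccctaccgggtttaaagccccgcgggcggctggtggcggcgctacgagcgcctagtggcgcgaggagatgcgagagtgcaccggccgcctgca
Wnt3: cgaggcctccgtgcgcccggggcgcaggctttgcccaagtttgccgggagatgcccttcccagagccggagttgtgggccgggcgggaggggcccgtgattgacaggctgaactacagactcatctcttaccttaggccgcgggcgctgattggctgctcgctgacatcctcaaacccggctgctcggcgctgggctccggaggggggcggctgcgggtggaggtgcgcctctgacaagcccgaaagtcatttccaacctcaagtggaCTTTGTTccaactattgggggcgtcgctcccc
Wnt10b: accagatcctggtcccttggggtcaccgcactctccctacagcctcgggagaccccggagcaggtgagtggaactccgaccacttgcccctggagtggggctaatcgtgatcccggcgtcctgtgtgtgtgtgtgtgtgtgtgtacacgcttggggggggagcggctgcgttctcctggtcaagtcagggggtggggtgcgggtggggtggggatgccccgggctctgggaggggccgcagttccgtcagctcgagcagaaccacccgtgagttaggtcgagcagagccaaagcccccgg
Fzd4: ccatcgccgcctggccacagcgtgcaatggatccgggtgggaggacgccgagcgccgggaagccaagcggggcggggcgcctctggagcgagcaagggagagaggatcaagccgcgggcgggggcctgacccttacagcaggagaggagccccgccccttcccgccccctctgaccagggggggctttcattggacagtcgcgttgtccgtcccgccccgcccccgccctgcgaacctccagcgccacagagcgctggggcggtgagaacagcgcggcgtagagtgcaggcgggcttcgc
Axin2: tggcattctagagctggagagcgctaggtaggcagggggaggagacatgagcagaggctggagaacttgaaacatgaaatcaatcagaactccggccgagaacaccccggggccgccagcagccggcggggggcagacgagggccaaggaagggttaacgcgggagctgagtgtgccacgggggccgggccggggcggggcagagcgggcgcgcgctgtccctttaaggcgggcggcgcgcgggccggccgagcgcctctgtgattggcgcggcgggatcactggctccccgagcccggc

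The core was searched on both strands as CTTTGAA or CTTTGAT or CTTTGTA or CTTTGTT. Of the 47 genes, 31 had such a window, 39 windows in all, and 6 of the 39 held the core (15.4%), against 16.9% of the 32851 windows in the table. The 6 belonged to Wnt3, Wnt5b, Wnt11, Fzd7, Lef1 and Tcf7l2, and a match of letters does not show binding. Most of the 39 windows had a high content of G and C: their median was 67.3%, with a 10th to 90th percentile of 52.7% to 78.3%, against 52.7% (39.7% to 69.7%) for all windows. The content was not high in every window, with 42% in a window of Tcf7l2, and some genes count with several windows. The 39 windows held a median of 24 CpG pairs, against 7 over all windows.

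None of the 25 Wnt pathway genes that could be tested across libraries passed an adjusted p of 0.1 in the acrylamide comparison. The test was limma on log2 normalised reads with 1 added, adjusted by the Benjamini-Hochberg method over 5746 genes with a mean of at least 1, of which 0% were called. Before adjustment, 3 of the 25 had a limma p under 0.05, against 9.05% of all genes tested, and 1 by the exact permutation test over libraries, against 4.7% of them. The smallest adjusted limma p among the 25 was 0.411. Of the 25 log2 fold changes 20 lay above 0, with a median of 0.28, while 61.8% of all 5746 lay above 0 with a median of 0.12. Scaling each library to its sum over the resolved genes moved the median of all genes to -0.0025, and 15 of the 25 were then above 0. Because the tissue is bulk, fewer cells of a type and less RNA per cell cannot be told apart in any of these values.

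**Figure D2:**
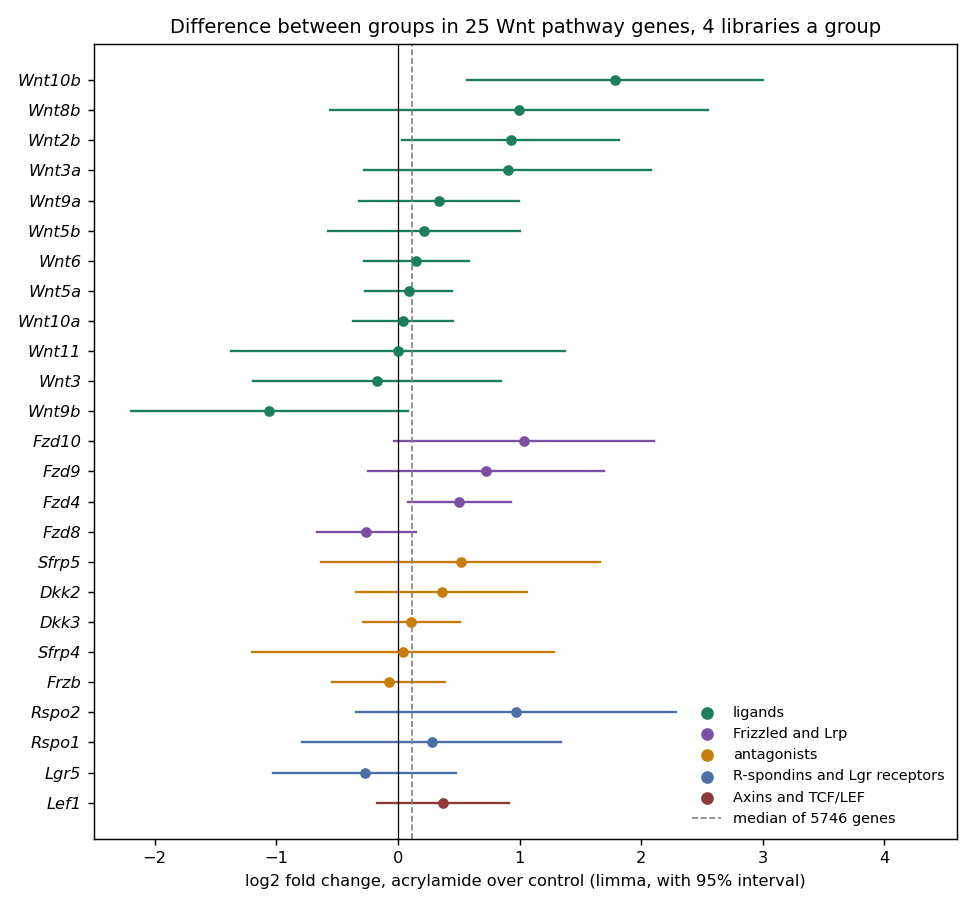
Log2 fold change, acrylamide over control, of the 25 Wnt pathway genes with reads in each library, with the 95% interval from limma (n = 4 libraries a group), colour by role. The intervals of Wnt10b, Wnt2b and Fzd4 lie above 0, no gene passed an adjusted p of 0.1, and the dashed line marks the median of all 5746 genes at 0.12.

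Among the ligands, Wnt9b was the only one of the 25 tested genes whose groups did not overlap, with fewer reads in acrylamide libraries. Of all genes tested, 4.7% had groups that did not overlap, counting both directions. Wnt9b, a ligand known from kidney and urogenital duct development, lies at chr11:103727362-103775272 and had 0, 1, 1 and 2 reads in acrylamide libraries 1 to 4, against 4, 2, 2 and 3 reads in control libraries. The highest acrylamide library and the lowest control libraries held the same 2 reads, and only their size factors set them apart, at 1.95 against 2.07 normalised reads. The ratio of the groups was 0.324 with an exact 95% counting interval of 0.0753 to 1.09. The exact permutation p was 0.0286, the smallest that 70 divisions of 8 libraries can give, and limma gave a log2 fold change of -1.06 (SE 0.53, p = 0.0658, adjusted p = 0.578). Over all genes tested, 1.39% had groups that did not overlap with acrylamide lower, and 3.31% with acrylamide higher, which held for 0 of the 25. These are 80 and 190 genes, which became 27 and 484 with the groups scaled to the total of all genes, and 153 and 104 with each library scaled to its sum over the resolved genes. Under the scaling to the total of all genes, the Wnt9b groups overlapped and those of Wnt10b, Wnt3a and Fzd4 did not.

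Reads of Wnt9b carry a further limit. In the RefSeq annotation the full span of its gene, on the minus strand, overlaps by 1098 bases the start of Wnt3 on the plus strand (chr11:103774175-103818021). Without stated strand information, reads in this stretch cannot be assigned to either gene. The Wnt9b start shown above lies outside this stretch, and the share of Wnt9b reads that fall in it was not examined. Wnt3, a ligand of beta-catenin signalling, had 12.6, 39.5, 13.6 and 27.3 normalised reads in acrylamide libraries 1 to 4, against 9.80, 43.5, 44.4 and 15.8 in control libraries. Each group held high and low libraries, so the ranges overlapped almost wholly, with a limma log2 fold change of -0.17 (SE 0.48, adjusted p = 0.934).

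Wnt10b, a ligand known from fat and bone biology that favours beta-catenin signalling, showed the largest difference of the 25, at very low counts. It had 4, 6, 2 and 4 reads in acrylamide libraries 1 to 4, against 0, 2, 0 and 0 reads in control libraries. Every acrylamide library held the gene, while 3 of the 4 control libraries held no read, and the groups met only at libraries with 2 reads. The ratio of the groups was 7.13, with an exact counting interval of 1.68 to 64.0. The limma log2 fold change was 1.78 (SE 0.57, p = 0.0071, adjusted p = 0.411), and the exact permutation p was 0.0571.

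Wnt2b, a ligand made by mesenchyme in several organs, was higher in the mean of acrylamide libraries but not separated. It had 12.6, 12.0, 21.4 and 5.85 normalised reads in acrylamide libraries 1 to 4, against 6.86, 5.18, 5.42 and 5.64 in control libraries. The control libraries were close together, and acrylamide library 4 lay among them while the other acrylamide libraries lay above all controls. The means were 12.9 ± 6.41 in acrylamide and 5.78 ± 0.747 in control libraries (SD, n = 4), with a limma log2 fold change of 0.93 (SE 0.42, p = 0.0426, adjusted p = 0.534) and an exact permutation p of 0.0571. Without acrylamide library 3, the highest, the log2 fold change was 0.66 with a limma p of 0.158.

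Wnt5b, a ligand of beta-catenin-independent signalling, had the largest ratio among the ligands with a mean of at least 10. It had 8.98, 16.5, 7.79 and 19.5 normalised reads in acrylamide libraries 1 to 4, against 9.80, 12.4, 9.76 and 10.2 in control libraries. Acrylamide libraries lay on both sides of the controls (log2 fold change 0.21, SE 0.37, limma adjusted p = 0.897). The log2 fold change was 0.35, 0.08, 0.41 and 0.0074 without acrylamide library 1, 2, 3 or 4. Wnt5a, its close relative and the most abundant of the ligands with reads before division by length, averaged 65.7 ± 11.7 in acrylamide and 61.4 ± 7.55 in control libraries (SD, n = 4).

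Of the remaining ligands, Wnt3a, a classical activator of beta-catenin, had 3, 3, 3 and 5 reads in acrylamide libraries 1 to 4, against 3, 1, 0 and 2 in control libraries. Wnt8b, known from the developing brain, had 0, 3, 3 and 5 reads in acrylamide libraries, against 0, 0, 0 and 4 in control libraries. Both were present in more acrylamide than control libraries, and both overlapped between groups, with limma adjusted p-values of 0.653 and 0.704. Wnt11, Wnt9a, Wnt6 and Wnt10a had log2 fold changes of 0.00 to 0.34 and limma adjusted p-values of 0.779 or above. Wnt6 and Wnt10a are neighbours on chromosome 1, 6697 bases apart, with levels per kilobase of 22.3 and 18.6 in the acrylamide group and 20.2 and 18.1 in the control group.

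The 3 abundant ligands were Wnt7b, Wnt2 and Wnt4, with log2 ratios of the group values from -0.04 to 0.19 and no spread between mice. Wnt7b, made by epithelia in several organs, had 293.2 normalised reads in the acrylamide group and 302.1 in the control group, a log2 ratio of -0.04 with a counting interval of -0.16 to 0.07. Wnt4, a ligand needed for the female reproductive tract and kidney, had 190.3 in the acrylamide group and 166.7 in the control group, a log2 ratio of 0.19 (0.04 to 0.34). Such intervals hold counting error only. Among 713 genes with reads per library and a total of 450 to 660 normalised reads, the standard error of the difference between groups had a median of 0.169 on the log2 scale, with a 10th to 90th percentile of 0.106 to 0.261. Of the 15 ligands, 4 lay at least 1.5-fold higher in the acrylamide group value (Wnt2b, Wnt3a, Wnt8b and Wnt10b) and 1 at least 1.5-fold lower (Wnt9b), against 8.26% and 3.52% of the 15345 genes with a mean of at least 1. All 5 of these ligands had a mean below 10 normalised reads. Over all genes with a mean of at least 10, the shares were 4.15% and 0.931%. Genes with fewer reads therefore passed 1.5-fold more often.

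**Figure D3:**
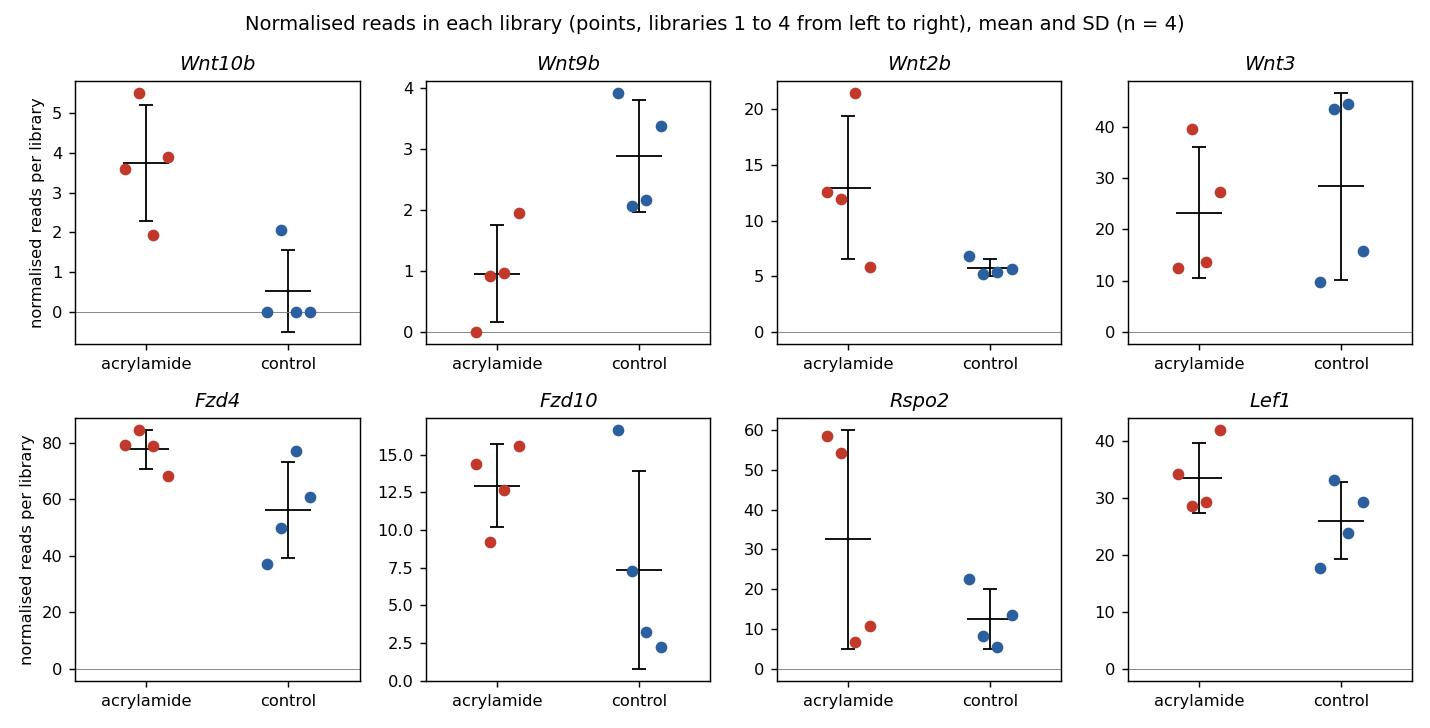
Normalised reads of 8 Wnt pathway genes in each library, acrylamide (red) left of control (blue), libraries 1 to 4 from left to right within a group, with mean and SD (n = 4). Only the Wnt9b groups are apart, by 1.95 against 2.07 normalised reads, and Rspo2 shows 2 acrylamide libraries above 50.

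Among the 4 receptors with reads per library, of 12 in all, Fzd4 was at first the only one with an unadjusted limma p under 0.05. Which receptors passed depended on the settings. Fzd4, a Frizzled receptor known from blood vessel growth in the retina, lies at chr7:89404366-89410110 and had 79.0, 84.6, 78.8 and 68.2 normalised reads in acrylamide libraries 1 to 4, against 37.2, 49.7, 76.96 and 60.9 in control libraries. Control library 3 exceeded acrylamide library 4, and every other acrylamide library lay above every control. The means were 77.7 ± 6.83 in acrylamide and 56.2 ± 16.9 in control libraries (SD, n = 4), a limma log2 fold change of 0.50 (SE 0.20, p = 0.0226, adjusted p = 0.468) with an exact permutation p of 0.0571. In limma without the trend, the unadjusted p was 0.0806 for Fzd4 and 0.0458 for Fzd9. With libraries scaled to their sum over the resolved genes, limma gave Fzd4 an unadjusted p of 0.0838. With the groups scaled to the total of all genes, the unadjusted limma p was 0.0039 for Fzd4 and 0.0312 for Fzd10. Without control library 1, the lowest, the log2 fold change of Fzd4 was 0.33, with a limma adjusted p of 0.580. Vessel markers lay on the same side: the 5 endothelial genes were all above 1 in the ratio of the group values, with a median log2 ratio of 0.24. The only one of them with reads, Tek, ranged from 41.8 to 71.8 normalised reads in acrylamide libraries and from 35.0 to 54.9 in control libraries. Ratios were also above 1 for 5 of 7 fibroblast and 6 of 6 smooth muscle genes, with median log2 ratios of 0.40 and 0.32. They were above 1 for 4 of 7 epithelial and 0 of 4 nerve and Schwann cell genes, with medians of 0.10 and -0.20. Of all genes, 51.4% had a ratio above 1. The part of any of these cell types in the Fzd4 difference was not tested.

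Fzd10, a Frizzled receptor of beta-catenin signalling, had 14.4, 9.19, 12.7 and 15.6 normalised reads in acrylamide libraries 1 to 4, against 16.7, 7.25, 3.25 and 2.26 in control libraries. Control library 1 was the highest of all, and the other 3 controls lay below every acrylamide library. The limma log2 fold change was 1.03 (SE 0.50, p = 0.0570, adjusted p = 0.572) and the exact permutation p was 0.171. Without control library 1 the log2 fold change was 1.5, with a limma adjusted p of 0.336, and without control library 4, the lowest, it was 0.69, with a limma adjusted p of 0.731. Fzd9 had 5, 9, 6 and 6 reads in acrylamide libraries, against 2, 5, 2 and 4 in control libraries, with a limma adjusted p of 0.661. Fzd8 had the opposite sign, with a log2 fold change of -0.26 and a limma adjusted p of 0.711.

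The other receptors were known only by their group values. Lrp5 had 863.9 normalised reads in the acrylamide group and 801.1 in the control group, a log2 ratio of 0.11 (counting interval 0.04 to 0.18). Lrp6, its close relative and likewise a co-receptor, had 580.9 in the acrylamide group and 584.8 in the control group. Fzd1 had the largest ratio of the abundant Frizzled genes, 335.1 in the acrylamide group against 265.6 in the control group, a log2 ratio of 0.34 (0.22 to 0.45). The remaining 5, Fzd2, Fzd3, Fzd5, Fzd6 and Fzd7, had log2 ratios from -0.10 to 0.04, all with counting intervals that include 0. Of the 12 receptors, 7 had a ratio above 1, against 51.4% of the 15345 genes with a mean of at least 1. At least 1.5-fold higher were 2, Fzd9 and Fzd10, against 8.26% of those genes. Their means were low, at 4.78 and 10.2 normalised reads, and genes with fewer reads passed 1.5-fold more often.

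**Figure D4:**
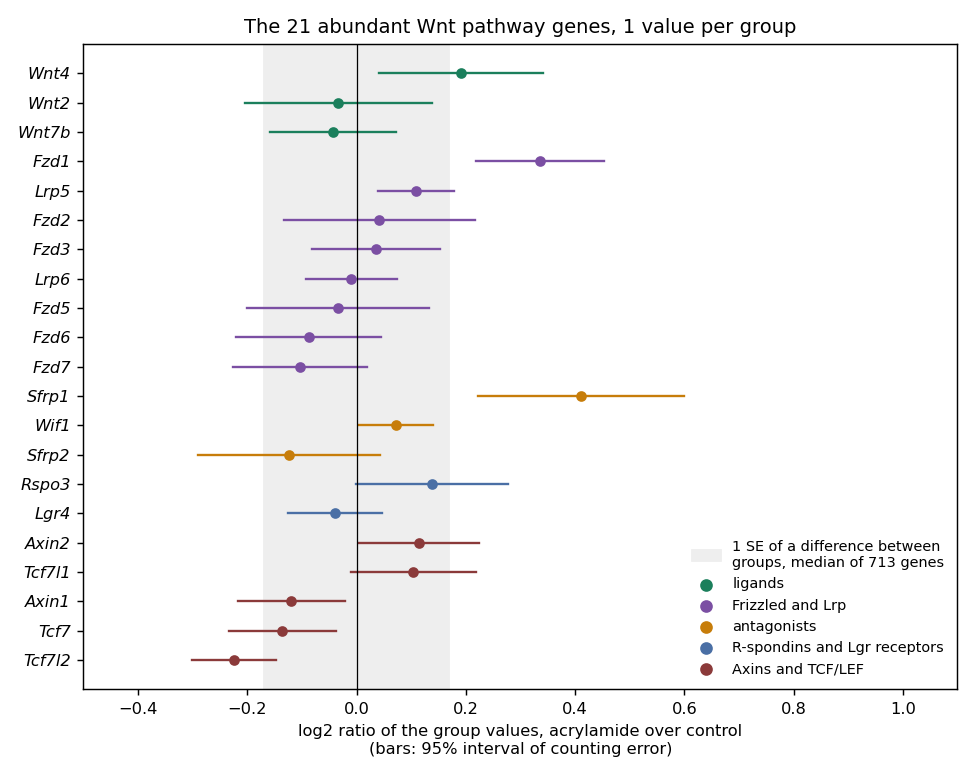
Log2 ratio of the group values, acrylamide over control, of the 21 abundant Wnt pathway genes, with the 95% interval of counting error and colour by role. Sfrp1 and Fzd1 lie farthest above 0, at 0.41 and 0.34, and Tcf7l2 farthest below at -0.22. The grey band spans 1 median standard error of a difference between groups, 0.169, in 713 less abundant genes.

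The secreted antagonists were led by Wif1, which had 885.4 normalised reads in the acrylamide group and 842.5 in the control group, a log2 ratio of 0.07 (counting interval 0.00 to 0.14). Sfrp1, a secreted Frizzled-related protein that binds Wnt ligands and takes part in prostate growth, had the largest ratio among the antagonists with a mean of at least 10. Its group values were 131.1 for acrylamide and 98.6 for control tissue, a log2 ratio of 0.41 (0.22 to 0.60), with no test across mice. Fibroblast and smooth muscle markers lay on the same side: 5 of 7 fibroblast and 6 of 6 smooth muscle genes had ratios above 1, against 51.4% of all genes. Their median log2 ratios were 0.40 and 0.32, against 0.10 for 7 epithelial and -0.20 for 4 nerve and Schwann cell genes. The part of these cell types was not tested. Sfrp2, by contrast, had 136.9 in the acrylamide group and 149.2 in the control group, a direction that turns when the groups are scaled to the total of all genes.

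The 5 antagonists with reads per library were Dkk2, Dkk3, Frzb, Sfrp4 and Sfrp5. Dkk3, a member of the Dickkopf family with a weak link to Wnt receptors, averaged 56.2 ± 12.0 in acrylamide and 51.2 ± 4.09 in control libraries (SD, n = 4). Frzb, a Frizzled-related protein that binds Wnt ligands, averaged 39.7 ± 6.95 in acrylamide and 42.1 ± 9.13 in control libraries (SD, n = 4). Dkk2, which binds Lrp co-receptors, had 34.1, 33.1, 31.1 and 58.5 normalised reads in acrylamide libraries 1 to 4, against 21.6, 16.6, 48.8 and 41.7 in control libraries. The Dkk2 ranges overlapped, and limma adjusted p-values of the 5 genes were 0.779 to 0.989.

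Rspo2 had the largest ratio of those among the 47 genes with a mean of at least 10, and 2 libraries carried it. Rspo2, a secreted amplifier of Wnt signalling, lies at chr15:43020788-43171594 and had 58.4, 54.2, 6.81 and 10.7 normalised reads in acrylamide libraries 1 to 4, against 22.5, 8.29, 5.42 and 13.5 in control libraries. Acrylamide libraries 1 and 2 lay far above everything else, while the other acrylamide libraries lay within the control range. The group values were 32.5 in acrylamide and 12.5 in control tissue, a ratio of 2.61, but the limma log2 fold change was 0.97 (SE 0.62, p = 0.137, adjusted p = 0.668) and the exact permutation p was 0.314. Without acrylamide library 1 the log2 fold change was 0.52, and without acrylamide library 2 it was 0.56. Without acrylamide library 3, the lowest of its group, it was 1.5 with a limma adjusted p of 0.504.

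Rspo3, the most abundant R-spondin, had 217.5 normalised reads in the acrylamide group and 197.6 in the control group, and Rspo1 averaged 10.4 ± 7.48 in acrylamide and 8.06 ± 4.38 in control libraries (SD, n = 4). Of their receptors, Lgr4 had 531.3 in the acrylamide group and 546.2 in the control group, a log2 ratio of -0.04 (counting interval -0.13 to 0.05). Lgr5, a stem cell marker of the intestine and itself a Wnt target, had 14.4, 12.0, 8.76 and 20.5 normalised reads in acrylamide libraries 1 to 4, against 24.5, 16.6, 15.2 and 11.3 in control libraries. The Lgr5 groups overlapped (log2 fold change -0.27, SE 0.35, limma adjusted p = 0.851). Lgr6 had 1 read in acrylamide library 3 and none in the other 7 libraries, so it was at or below the floor of 3 reads in both groups. Its control group value was nevertheless 0.0985, and the origin of such values was not tested.

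Inside the cell, the abundant TCF and Axin genes had log2 ratios from -0.22 to 0.11, on both sides of 0 and with no spread between mice. Tcf7l2 had 631.5 normalised reads in the acrylamide group and 737.7 in the control group, a log2 ratio of -0.22 (counting interval -0.30 to -0.15). Tcf7 and Axin1 had log2 ratios of -0.14 (-0.23 to -0.04) and -0.12 (-0.22 to -0.02), and Tcf7l1 had 0.10 (-0.01 to 0.22). Axin2, a negative regulator that beta-catenin itself switches on, had 345.8 in the acrylamide group and 319.7 in the control group, a log2 ratio of 0.11 (0.00 to 0.22). Scaling the groups to the total of all genes adds 0.17 to each of these log2 ratios. Of the 21 abundant genes of all roles, 11 had log2 ratios below 0, and this scaling turned 10 of them above 0, all but Tcf7l2.

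Lef1, a nuclear partner of beta-catenin that is also high in T cells, was the only gene of this class with reads per library. It had 34.1, 28.5, 29.2 and 41.9 normalised reads in acrylamide libraries 1 to 4, against 17.6, 33.2, 23.8 and 29.3 in control libraries. Acrylamide libraries 1 and 4 exceeded all controls and the others lay within the control range, with a limma log2 fold change of 0.37 (SE 0.25, p = 0.166, adjusted p = 0.692) and an exact permutation p of 0.200. The T cell sums were also highest in acrylamide libraries 1 and 4, at 342.2 and 135.5. Without acrylamide library 1 the log2 fold change of Lef1 was 0.36, and the part of T cells was not tested. Without control library 1, the lowest, it was 0.21.

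Over all 5 roles, 46 of the 47 genes had a mean of at least 1, and 30 of these (65.2%) had a group value ratio above 1, against 51.4% of all 15345 genes. Their median log2 ratio was 0.11, against 0.0075. At least 1.5-fold higher were 8 genes, the 4 ligands named above with Fzd9, Fzd10, Sfrp5 and Rspo2, and 1 was lower. The shares of all 15345 genes were 8.26% and 3.52%. These shares are not matched for level, and genes with fewer reads passed 1.5-fold more often. With a mean of at least 10, only Fzd10 and Rspo2 were past 1.5-fold, against 4.15% of genes higher and 0.931% lower. By class, the median log2 ratio was 0.15 for ligands, 0.04 for receptors, 0.15 for antagonists, 0.14 for R-spondins and their receptors, and -0.01 for Axins and TCF/LEF genes. Summed over the 26 genes with reads, the libraries ranged from 576.2 to 666 normalised reads in acrylamide and from 514.9 to 573.4 in control tissue. The sum of all resolved genes was likewise 137746 to 155016 in acrylamide and 130008 to 132041 in control libraries, and its part in the sum of the 26 was not tested.

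Genes that act with these, from Wnt secretion to the planar polarity branch, had group value ratios on both sides of 1, and limma called 0% of all genes tested. Of 70 such genes, 68 had a mean of at least 1. Of these 68, 45 had a ratio above 1, against 51.4% of all genes. The median log2 ratio of the 68 was 0.07, against 0.0075 over all genes. Ctnnb1, which encodes beta-catenin, had the highest value before division by length, with 2694 normalised reads in the acrylamide group and 2541 in the control group. Vangl2, a planar polarity protein, was the only one past 1.5-fold, against 8.26% of all genes higher and 3.52% lower. It had 15.7 in the acrylamide group and 10.3 in the control group, with a limma adjusted p of 0.681. Of the 16 that limma could test, none passed the adjusted p, none had an unadjusted p under 0.05 (9.05% of all genes tested did), and none had groups that did not overlap (4.7% of all did). The limma log2 fold changes of 14 of these 16 lay above 0, with a median of 0.18. Over all genes tested, 61.8% lay above 0, with a median of 0.12.

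Commonly used Wnt target genes had ratios on both sides of 1. Of 25 listed, 23 were in the table and 22 had a mean of at least 1. Of these 22, 13 had a ratio above 1, against 51.4% of all genes. The median log2 ratio of the 22 was 0.07, against 0.0075 over all genes. Ccnd1, a cell cycle gene, had the highest value before division by length, with 3592 normalised reads in the acrylamide group and 3404 in the control group. At least 1.5-fold lower were Mmp7, a secreted protease, Sp5, a transcription factor, and Ascl2, a stem cell factor. The share over all genes was 3.52% with a mean of at least 1 and 0.931% with a mean of at least 10. Mmp7 had 335.2 in the acrylamide group and 612.1 in the control group, with no spread between mice and no test. Ascl2 had only 1.40 in the acrylamide group and 2.12 in the control group (limma adjusted p = 0.854). Sp5 had 3.59, 13.8, 3.89 and 4.87 normalised reads in acrylamide libraries 1 to 4, against 16.7, 22.8, 15.2 and 0 in control libraries, so that control library 4 alone made the groups overlap. Its limma adjusted p was 0.905. Of the 8 targets that limma could test, none passed the adjusted p and none had an unadjusted p under 0.05, against 0% and 9.05% of all genes tested. Axin2, Lef1, Tcf7, Lgr5 and Wif1 belong to both this list and the 47.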

How the data were processed

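RNA of 8 seminal vesicle samples (4 acrylamide, 4 control) was analysed from 1 deposited table. Upstream, the authors cleaned reads by SOAPnuke, aligned to mm10 by Hisat2, added predicted genes by Stringtie, Cuffcompare and CPC, counted by RSEM and normalised by DESeq2; versions are not given in the sources used here. The signal columns, as deposited by the authors, hold an acrylamide and a control value for each gene, in units of reads divided by size factors, which can be above 0 in a group without a read. The other columns hold the fold change, its log2, p-values and adjusted p-values of the authors' comparison and were not used.

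At low totals, the mean of both values is a sum of whole reads, each divided by its library's size factor, over 8. The 593 genes with 1 read show 8 steps, each the inverse of a size factor, and the group whose value is higher gives the group of that library. Whole reads were then searched from the digits of the mean and the division between the groups, for genes with a total of up to 660 normalised reads, and kept at a posterior of at least 99%. This gave 7659 of 7838 genes tried. The search was tested on simulated data. The 26 genes described with reads had totals of up to 535.5 and a posterior of 0.997 or above.

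Tests used limma 3.58.1 with a mean-variance trend in R 4.3.3 on log2 values with 1 added, without covariates, which understates folds of low genes, and two-sided exact permutation tests over 70 divisions, whose smallest p is 0.0286. limma is the main test in place of a count model because reads exist for part of the genes only. Its fit was tested on simulated data. Counting intervals are 95% Poisson intervals, or exact binomial intervals where a group had few reads, and cover counting error only. Lengths came from GENCODE vM21 and positions, starts and sequences from RefSeq on GRCm38.p6. Python 3.11.15 with numpy 2.4.6, pandas 2.3.3, numba 0.67.0 and matplotlib 3.10.9 was used.

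Genes given in full were those called or with groups that did not overlap, the 4 with the smallest limma p, the 8 highest per kilobase, and in each role the highest per kilobase and the largest log2 ratio with a mean of at least 10. Others, such as Wnt3, Wnt3a, Wnt8b, Fzd1, Dkk2, Lgr5, Axin2, Mmp7 and Sp5, were chosen after their values were seen. The 47 genes were picked out by their symbols, but this gene group, the lists and the tests were chosen with earlier results of these data known. Alternatives were other pseudocounts, filters and scalings, limma without the trend, and leaving out each library.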

Additional observations from a re-analysis of the deposited data

Results flagged for a closer look

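In 7 of 52 groups of 4 libraries, 1 library lay far from the other 3 by Dixon's ratio, where chance flags about 1 in 20 groups of continuous values. In 3 of the 7, those of Wnt8b, Wnt10b and Lgr6, the other 3 libraries held no read, so the ratio was 1 by construction. Control library 4 had 4.51 normalised reads of Wnt8b and control library 2 had 2.07 of Wnt10b, with 0 in the other controls of each. Acrylamide library 3 had 0.973 of Lgr6, a single read, with 0 in the other acrylamide libraries. Acrylamide library 4 had 4.87 of Wnt3a, against 2.69 to 2.92 in the others, and 58.5 of Dkk2, against 31.1 to 34.1. Acrylamide library 2 had 68.9 of Fzd8, against 39.5 to 43.9. Control library 2 had 12.4 of Wnt5b, against 9.76 to 10.2. The flags fell on 5 different libraries.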

How the results depend on the processing

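None of the 25 tested genes passed the adjusted p of 0.1 in limma under any of the 16 alternatives, and their smallest adjusted p ranged from 0.148 to 0.625. Over all genes, limma called 0 at first, and 17 higher and 1 lower with the groups scaled to the total of all genes. The count of genes whose groups did not overlap was 1 at first, 3 with the groups scaled to the total of all genes, and 1 to 4 when 1 library was left out. Over all genes tested, the share whose groups did not overlap was 4.7% at first, 8.8% under that scaling and 7.48% to 9.75% with 1 library left out. Acrylamide library 2 or 4 left out gave 3 and control library 1 left out gave 4. With the filter at a mean of at least 5, the count was 0 of 17 genes, against 5.0% of all genes tested. Wnt9b lay below this filter. Past 1.5-fold in the group values were 2 genes with a mean of at least 10, against 9. The sign turned for 8 of the 25 genes. With libraries scaled to their sum over the resolved genes, the log2 fold change was -0.021 for Dkk3, -0.066 for Sfrp4, -0.088 for Wnt10a, -0.040 for Wnt11 and -0.042 for Wnt5a. With the groups scaled to the total of all genes it was 0.094 for Frzb, and with a pseudocount of 0.5 it was -0.0012 for Wnt11. Leaving out 1 library gave -0.17 to 0.054 for Frzb, -0.11 to 0.52 for Rspo1, -0.34 to 0.45 for Sfrp4, -0.075 to 0.14 for Wnt10a, -0.39 to 0.37 for Wnt11, -0.57 to 0.12 for Wnt3 and -0.0012 to 0.20 for Wnt5a. The cause was not tested. The total scaling moves the median of the genes tested by limma to 0.28 and the resolved-gene scaling to -0.0025. No paired analysis was possible because the columns carry no replicate number. The 21 abundant genes have no spread between mice, and genes of a few reads are limited by counting error.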
